A study of Mus musculus with 21 samples.

Results

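A set of 31 genes of the oligodendrocyte lineage and of myelin was examined in mouse brain RNA-seq libraries from a study of copper in brain development. The genes were chosen by symbol, and each of them was found among the 21872 gene symbols counted at each age. Control mice (treatment label water) were compared with mice given trientine (TETA), a copper chelator, whose condition the labels call Copper-deficient. The groups at embryonic day 18.5 (E18.5) hold 6 libraries from controls and 6 from TETA mice, and those at 7 weeks after birth hold 5 and 4. The labels give the tissue as Mouse brain at both ages, and the extraction protocol names only the prefrontal cortex of male mice at 7 weeks. The brain region and sex at E18.5, the strain, and the dose, route and timing of TETA are not given in the sources used here, and no genetic change is named in any group.

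Oligodendrocytes wrap axons of the central nervous system in myelin, a stacked membrane rich in galactolipid and in a small set of structural proteins. They arise from precursor cells that divide and migrate under the control of the PDGF receptor alpha, pass through a short newly formed stage, and then switch on the myelin genes together under the transcription factors SOX10 and MYRF. In the mouse forebrain precursors are already present before birth, whereas most myelin forms during the weeks after birth.

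The E18.5 libraries held 14678265 to 24308555 counts assigned to genes, and the 7-week libraries 17838051 to 24035857. Levels below are CPM, the usual per-library scaling of counts, after TMM normalisation, which corrects library totals for composition, and comparisons are edgeR quasi-likelihood tests with Benjamini-Hochberg adjusted p-values over all genes tested and a threshold of 0.05. The labels do not say that libraries of a group came from separate animals, so p-values measure the spread between these libraries. The E18.5 libraries of each group are named from 1-1 to 3-2. Those that share a first number were tested as separate libraries. In bulk tissue, fewer cells of a type and less RNA per cell cannot be told apart.

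The lineage was first described in the control brains at the 2 ages. The 12 genes of myelin proteins and galactolipid synthesis rose by 7 weeks, and apart from Mbp and Cnp their mean levels at E18.5 were 3.26 CPM (Ugt8a) or less. The 4 precursor genes differed between the ages by less than 1 log2 unit. Of the 31 genes, 30 were higher at 7 weeks in the joint fit of all 21 libraries, and none was lower. The background for this comparison was high, since 89.3% of the 14660 genes tested passed the threshold and 44% passed it in the upward direction. The median log2 difference was 4.49 over the 31 genes and -0.02 over all genes tested. For 29 of the 31 genes the highest E18.5 control library lay below the lowest 7-week control library, against 39.4% of all genes. The exceptions were Cspg4 and Olig2. Of the 31 genes, 23 passed the filter on low counts at E18.5 alone. The others, with 0 (Opalin) to 162 counts (Cldn11) over the 12 E18.5 libraries, were tested here together with their high 7-week counts. They are included in the 30, the 29 and the median, so those numbers rest partly on genes with few or no E18.5 reads. Age, brain region and the separate count tables cannot be told apart in this comparison.

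Among the precursor genes, Pdgfra, the receptor for the growth factor that drives precursor division, had mean levels of 55.6 ± 3.01 CPM (SD, n = 6) at E18.5 and 71.5 ± 3.92 CPM (SD, n = 5) at 7 weeks on the joint scale. Its log2 difference was 0.37 (SE 0.056, edgeR adjusted p = 4.59e-07). Cspg4, which encodes the NG2 proteoglycan of the precursor surface, differed by 0.37 (SE 0.091, edgeR adjusted p = 0.000471). Olig1, a basic helix-loop-helix factor needed for maturation, rose by 0.84 (SE 0.056). Olig2, the related factor that specifies the lineage, was at 28.0 ± 1.58 CPM (SD, n = 6) and 28.7 ± 2.54 CPM (SD, n = 5). It was the only one of the 31 that did not pass the test, with a log2 difference of 0.05 (95% interval -0.07 to 0.16, edgeR adjusted p = 0.443). Under library totals without TMM the Olig2 difference was -0.10 (adjusted p = 0.087), and the median of all genes moved to -0.17.

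Among the regulators, the age differences spread widely. Myrf, the factor that switches on myelin genes, went from 0.833 ± 0.168 CPM (SD, n = 6) to 51.2 ± 1.75 CPM (SD, n = 5), a log2 difference of 5.94 (SE 0.12). Nkx6-2, a homeodomain factor of maturing oligodendrocytes, rose by 5.10 on the log2 scale, and Sox10, the factor carried by the whole lineage, rose by 2.13. Nkx2-2, a homeodomain factor of early differentiation, rose by 0.77, and Sox8, a relative of Sox10, rose by 0.42. The genes of the newly formed stage also differed among themselves. Gpr17, a receptor of committed precursors, rose by 1.93 and Tspan2, a tetraspanin of new oligodendrocytes, by 3.37. Bcas1 and Enpp6, markers of cells that have begun to myelinate, rose by 5.47 and 7.33.

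The 9 genes of myelin proteins had the largest median of the 6 groups, 8.39 on the log2 scale. Of these 9, 5 passed the filter at E18.5 alone, so the median rests partly on genes with few or no reads there. Mbp, the basic protein that compacts the membrane, was at a lowest, median and highest level of 29.7, 32.6 and 34.7 CPM in the 6 control libraries at E18.5. In the 5 control libraries at 7 weeks the Mbp levels were 2783, 3072, 2771, 2932 and 2853 CPM, each on the scale of its own age. The 2 sets of libraries were far apart, with a log2 difference of 6.61 (SE 0.056). Counts are per gene, so the transcripts of the Mbp locus are not told apart at either age. Cnp, an enzyme of the non-compact myelin, rose by 4.42 and Mag, the adhesion protein next to the axon, by 8.39. Mal and Cldn11, a proteolipid and the tight-junction claudin of myelin, rose by 8.64 and 8.30. Ermn, a cytoskeletal protein of late oligodendrocytes, rose least of the 9, by 4.19.

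Opalin, Mobp and Mog were almost or wholly without reads before birth. Opalin, a membrane glycoprotein of mature oligodendrocytes, had 0 counts in every E18.5 library and 2643 counts over the 5 control libraries at 7 weeks, which was at least 1062-fold higher against a floor of 3 counts over the E18.5 group. Mobp, a structural protein of compact myelin, had 3 counts over the 6 control libraries at E18.5 and 114940 at 7 weeks, a ratio of 46170 (exact 95% counting interval 15800 to 223900). Mog, the glycoprotein of the outermost myelin surface, had 6 and 8030 counts, a ratio of 1613 (740.7 to 4396). These intervals and the floor cover counting error only, and the few Mobp counts at E18.5 are the deposited ones divided by 11, as were those of Aspa. The fitted log2 difference of Mobp was 15.16, and it was 16.07 without control library 2-2 of E18.5 and 12.02 with counts as deposited. The enzymes of myelin lipid and acetate metabolism rose as well. Fa2h, which hydroxylates the fatty acids of galactolipids, rose by 9.43 and Aspa, which releases acetate from N-acetylaspartate, by 7.53. For Aspa the difference was 8.16 without control library 2-1 of E18.5 and 4.21 with counts as deposited. Ugt8a and Gal3st1, which make galactosylceramide and sulfatide in succession, rose by 4.65 and 2.49.

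The remaining 5 genes are expressed by oligodendrocytes and also by other cells. Gjc3, a gap-junction connexin, rose by 6.73, the small heat shock protein gene Cryab by 4.49 and the carbonic anhydrase gene Car2 by 4.29. Qdpr, which recycles tetrahydrobiopterin, rose by 1.94. Nfasc, whose products sit at the node and at the paranodal junction and are made by neurons too, rose by 0.73.

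**Figure D1:**
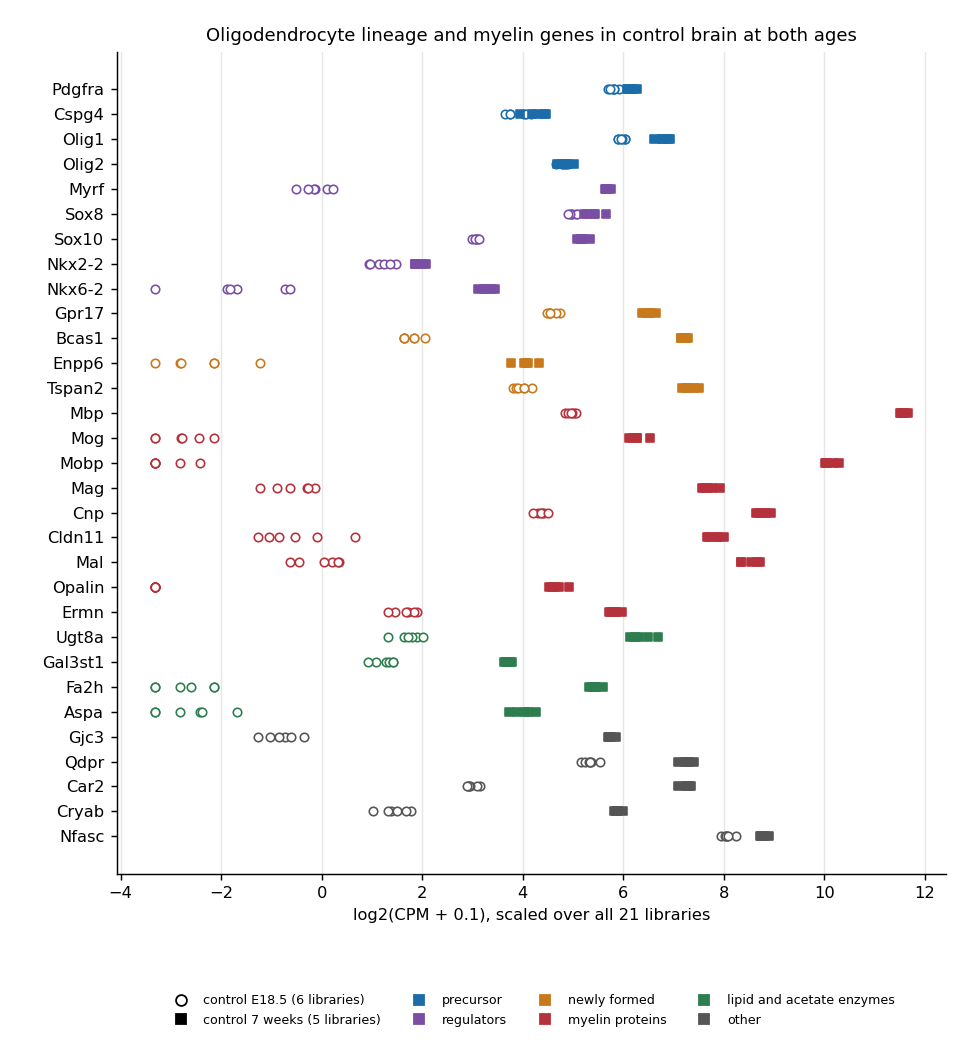
Each row is 1 of the 31 genes and each point 1 control library, open circles for E18.5 (6 libraries) and filled squares for 7 weeks (5 libraries), on a log2(CPM + 0.1) axis, with colours for the 6 roles. The 2 ages overlap for Cspg4 and Olig2, and the points of Opalin lie at the floor of the axis at E18.5.

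Levels of different genes were compared per kilobase of exon, on the joint scale and the GENCODE M21 gene models. At 7 weeks Mbp led the control brains with 360 ± 15.7 CPM per kb (SD, n = 5), followed by Mobp with 163 ± 14.4. Mal (133 ± 16.5), Cldn11 (122 ± 11.8) and Cnp (121 ± 10.2) came next and lay within the largest of their SDs of each other. The lowest of the 31 at 7 weeks were Cspg4 with 1.61 ± 0.225 CPM per kb and Nkx2-2 with 1.304 ± 0.094. The order was different before birth. At E18.5 Olig1 led with 28.9 ± 1.199 CPM per kb (SD, n = 6), Qdpr had 22.4 ± 2.03, Nfasc 18.9 ± 1.33 and Olig2 11.1 ± 0.623, while Mbp, with 3.67 ± 0.210, was at place 9.

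Upstream sequences are shown for Mobp, Opalin and Mog, the genes with the fewest E18.5 reads among the myelin proteins, and for Pdgfra, the precursor gene that TETA libraries differed in at 7 weeks. Each is the 250 bases before the RefSeq transcription start on build GRCm38.p6, read 5′ to 3′ on the gene's strand. They lie at chr9:120149492-120149741 on the plus strand (Mobp), chr19:41077114-41077363 on the minus strand (Opalin), chr17:37023399-37023648 on the minus strand (Mog) and chr5:75152001-75152250 on the plus strand (Pdgfra). Capitals mark matches on either strand to 3 motifs. The first is ACAAAG, a core recognised by SOX proteins, which reads CTTTGT on the other strand. The second is CTGGTAC, a motif of MYRF, the third is the E-box CAGATG, bound by basic helix-loop-helix factors, and both appear below as their reverse complements.
Mobp: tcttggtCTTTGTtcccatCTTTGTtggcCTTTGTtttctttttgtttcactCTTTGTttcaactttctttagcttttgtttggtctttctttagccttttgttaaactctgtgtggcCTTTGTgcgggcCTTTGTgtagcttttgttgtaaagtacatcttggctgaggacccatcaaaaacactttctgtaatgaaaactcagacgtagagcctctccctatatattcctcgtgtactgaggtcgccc
Opalin: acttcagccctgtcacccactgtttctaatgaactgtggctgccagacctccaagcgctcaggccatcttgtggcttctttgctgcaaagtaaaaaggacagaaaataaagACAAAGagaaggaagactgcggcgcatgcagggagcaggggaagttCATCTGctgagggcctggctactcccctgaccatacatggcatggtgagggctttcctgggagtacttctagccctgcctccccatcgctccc
Mog: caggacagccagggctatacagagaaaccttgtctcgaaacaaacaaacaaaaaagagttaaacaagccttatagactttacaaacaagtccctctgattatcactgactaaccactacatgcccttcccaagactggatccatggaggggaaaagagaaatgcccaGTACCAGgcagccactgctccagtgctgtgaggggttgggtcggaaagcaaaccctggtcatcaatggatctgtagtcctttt
Pdgfra: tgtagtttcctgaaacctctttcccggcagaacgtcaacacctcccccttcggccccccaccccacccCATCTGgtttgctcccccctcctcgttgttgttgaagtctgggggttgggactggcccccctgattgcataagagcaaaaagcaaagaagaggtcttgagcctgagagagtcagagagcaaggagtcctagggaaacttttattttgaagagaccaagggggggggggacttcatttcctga

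The Mobp window held 6 copies of CTTTGT. Of the 31 genes, 22 had an entry in the RefSeq promoter table, and Bcas1, Car2, Cryab, Fa2h, Gpr17, Mbp, Myrf, Olig1 and Sox10 had none. Over both strands, ACAAAG was found upstream of Cnp, Mag, Mobp and Opalin, 4 of 22, against 16.5% of 27025 promoters of the same length. A related SOX core, ACAATG, was found in 4 of 22 (Enpp6, Ermn, Gal3st1 and Olig2) against 11%. The MYRF motif CTGGCAC was found upstream of Cnp and Mag, against 4.14% of all promoters, and CTGGTAC upstream of Mog alone, against 1.8%. The E-box CAGATG was in 7 of the 22 windows against 14.5%, and CAGCTG in that of Aspa against 12.8%. These matches describe letters in short windows and do not show binding.

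TETA was compared with control at E18.5 first. No gene of the lineage passed the adjusted threshold, and no gene of the 13794 tested did (0%), while 660 (4.78%) had an unadjusted p under 0.05 in edgeR and 10 genes passed in DESeq2. Of the 31 genes, 23 passed the filter on low counts. Their log2 differences were above 0 for 10 and below 0 for 13, against 51.8% of all genes below 0, with a median of -0.05 (all genes -0.0027). The groups overlapped for each of the 23, and 0.312% of all genes had groups without overlap. An unadjusted p under 0.05 was reached by 5 of the 23 (21.7%): Gal3st1, Tspan2, Gpr17, Cryab and Olig1. Their directions were mixed and the smallest adjusted p was 0.604. The other 8 genes did not pass the filter, which asks for a minimum level in enough libraries, with summed counts over the 12 libraries of 162 for Cldn11, 65 for Nkx6-2, 21 for Aspa, 20 for Enpp6, 19 for Mog, 14 for Fa2h, 4 for Mobp and 0 for Opalin. With no filter 30 of the 31 were tested, and none passed the threshold.

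The precursor genes at E18.5 differed little with TETA. Pdgfra had a lowest, median and highest level of 54.1, 58.1 and 62.9 CPM in the 6 control libraries and of 52.1, 58.0 and 65.3 CPM in the 6 TETA libraries. Cspg4 levels were 13.0, 15.4 and 18.5 CPM in controls and 14.6, 16.7 and 20.6 CPM with TETA. Olig2 levels were 26.3, 29.3 and 30.9 CPM against 26.8, 27.8 and 30.1 CPM. In all 3 genes the groups overlapped over most of their range. The log2 differences were 0.01 for Pdgfra (95% interval -0.10 to 0.12), 0.14 for Cspg4 (-0.05 to 0.32) and -0.05 for Olig2 (-0.15 to 0.06). Olig1 levels were 61.6, 65.1 and 68.4 CPM in controls and 49.4, 61.7 and 64.1 CPM with TETA. TETA library 1-2 was the lowest in Olig1, and the groups overlapped. The log2 difference of Olig1 was -0.12 (SE 0.052, edgeR adjusted p = 0.991).

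The smallest p of the lineage at E18.5 belonged to Gal3st1, the sulfotransferase that completes sulfatide (chromosome 11, 3983636 to 3999326, plus strand, mm10). Its levels were 1.87, 2.48 and 2.67 CPM (lowest, median and highest) in the control libraries and 1.33, 1.61 and 2.00 CPM in the TETA libraries, from counts between 26 and 60 per library. Only control library 2-2 lay below the highest TETA library, so the groups overlapped narrowly. The log2 difference was -0.50 (SE 0.14, edgeR adjusted p = 0.604).

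Tspan2 levels at E18.5 were 14.4, 16.1 and 18.8 CPM in controls and 16.7, 18.5 and 19.0 CPM with TETA, a log2 difference of 0.17 (SE 0.061, edgeR adjusted p = 0.884). Control library 1-2 lay among the higher TETA libraries. Gpr17 levels were 23.0, 24.2 and 27.8 CPM in controls and 20.1, 22.2 and 25.1 CPM with TETA, a log2 difference of -0.15 (SE 0.061, edgeR adjusted p = 0.941). Of the 6 TETA libraries, 3-1 alone lay above the control median of Gpr17. Mbp, the myelin protein gene with the most reads before birth, was at 32.4 ± 1.83 CPM (SD, n = 6) and 33.8 ± 2.14 CPM (SD, n = 6). Its log2 difference was 0.06 (95% interval -0.05 to 0.17). The E18.5 levels of Cldn11 were low and uneven in both groups, from 0.327 to 1.56 CPM in controls and from 0.0623 to 1.77 CPM with TETA.

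At 7 weeks, 2 of the 31 genes differed between TETA and control libraries. Pdgfra was lower and Sox8 was higher with TETA, each by less than a log2 unit, and no myelin gene passed the threshold. That share, 6.45%, is set beside 9.96% of the 14240 genes tested, of which 5.67% were higher and 4.28% lower. Of the 31 genes, 8 (25.8%) had an unadjusted p under 0.05, against 24% of all genes. The log2 differences were above 0 for 17 and below 0 for 14, with a median of 0.01 (all genes 0.00019). For none of the 31 genes were the groups without overlap, against 11.2% of all genes. Without TMM the calls over all genes split into 1003 higher and 480 lower, in place of 808 and 610.

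Pdgfra lies on chromosome 5 from 75152292 to 75198215 on the plus strand (mm10). Its levels at 7 weeks were 72.7, 63.3, 65.1, 67.6 and 69.6 CPM in control libraries 1 to 5 and 61.1, 64.6, 60.2 and 50.9 CPM in TETA libraries 1 to 4. TETA 1, 3 and 4 lay below every control library, and TETA 2 lay above control 2. The log2 difference was -0.19 (SE 0.056, 95% interval -0.31 to -0.08, edgeR adjusted p = 0.0328). The adjusted p passed 0.05 in DESeq2 (0.0191) and missed it without TMM (0.0534). It also missed it without control 1 (0.0826), control 4 (0.0598), control 5 (0.0571), TETA 3 (0.065) or TETA 4 (0.112), and without TETA 4 the log2 difference was -0.13.

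Pdgfra is also expressed by fibroblasts of the meninges and vessels. All 7 fibroblast markers were below 0 at 7 weeks, and 2 of them, the collagen genes Col1a1 and Col1a2, passed the threshold, beside 49.9% of all genes below 0 and 4.28% called lower. Their summed level was 54.8 to 63.4 CPM in control libraries and 37.5 to 53.7 CPM in TETA libraries, with no marker at 0. The part of these cells in the Pdgfra result was not tested.

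Sox8 lies on chromosome 17 from 25565892 to 25570686 on the minus strand. Its levels at 7 weeks were 47.4, 40.0, 36.4, 40.9 and 35.3 CPM in control libraries 1 to 5 and 56.0, 58.1, 48.9 and 39.5 CPM in TETA libraries 1 to 4. TETA 1, 2 and 3 lay above every control library, and TETA 4 lay among the controls. The log2 difference was 0.34 (SE 0.090, 95% interval 0.15 to 0.53, edgeR adjusted p = 0.0204). The adjusted p was 0.0977 in DESeq2, 0.0543 without control 3, 0.082 without TETA 1 and 0.0811 without TETA 2. Astrocytes express Sox8 too, and 3 of 8 astrocyte markers were lower with TETA and none higher, beside 4.28% of all genes lower. The summed astrocyte level was 5616 to 6475 CPM in controls and 5165 to 5517 CPM with TETA, with no marker at 0. The part of astrocytes in the Sox8 result was not tested.

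The other precursor genes at 7 weeks did not pass the threshold and went in different directions. Cspg4 levels were 20.8, 18.3, 14.5, 17.1 and 20.2 CPM in controls and 21.2, 21.96, 21.1 and 20.7 CPM with TETA. TETA 1, 2 and 3 were above every control, and TETA 4 lay just below control 1. The log2 difference was 0.22 (SE 0.080, edgeR adjusted p = 0.0941), and it passed without control 1 (adjusted p = 0.0375), while leaving out control 3 gave 0.192. Cspg4 is shared with pericytes. Of 6 pericyte and mural markers, 4 were above 0 and 2 below, beside 49.9% of all genes below 0. Their median log2 difference was 0.08, and none passed the threshold. Their summed levels were 187 to 195 CPM in controls and 188 to 201 CPM with TETA, with no marker at 0. The part of these cells in the Cspg4 value was not tested.

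Olig1 levels at 7 weeks were 104, 112, 92.7, 103 and 115 CPM in controls and 106, 105, 92.0 and 105 CPM with TETA, a log2 difference of -0.05 (95% interval -0.16 to 0.07). Olig2 levels were 26.9, 30.6, 25.8, 24.4 and 28.3 CPM in controls and 26.3, 28.5, 30.7 and 29.1 CPM with TETA, a log2 difference of 0.07 (95% interval -0.06 to 0.20). In both genes the groups overlapped over most of their range. The surface receptors Pdgfra and Cspg4 thus had log2 differences of opposite sign, and the 2 Olig factors differed by less than their SDs.

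**Figure D2:**
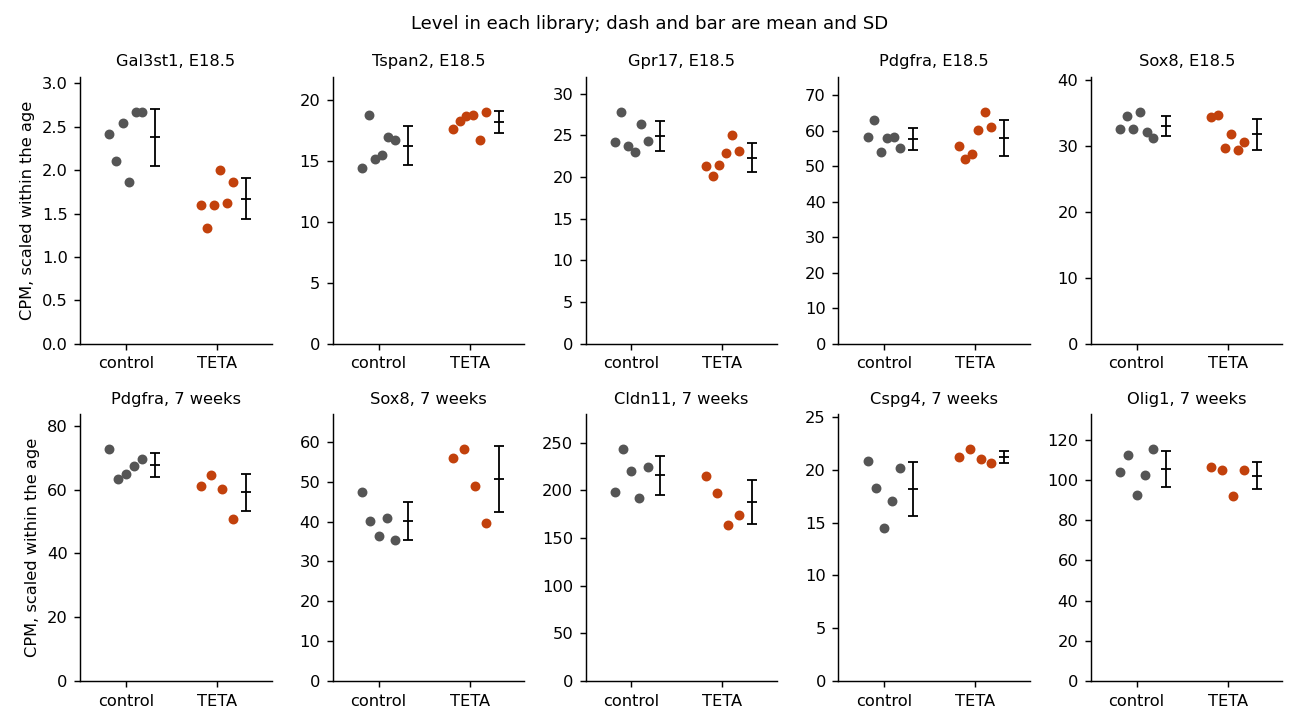
Each panel shows the CPM of 1 gene in every control and TETA library (points), with the mean and SD beside them, for Gal3st1, Tspan2, Gpr17, Pdgfra and Sox8 at E18.5 (upper row) and Pdgfra, Sox8, Cldn11, Cspg4 and Olig1 at 7 weeks (lower row). Every pair of groups overlaps, as for Pdgfra at 7 weeks, with 63.3 to 72.7 CPM in controls and 50.9 to 64.6 CPM with TETA.

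Of the 9 genes of myelin proteins, 7 were below 0 at 7 weeks, with a median log2 difference of -0.11, and none passed the threshold, while 49.9% of all genes tested were below 0. Cldn11 had the smallest p. Its levels were 198, 243, 220, 192 and 225 CPM in controls and 216, 197, 164 and 174 CPM with TETA. TETA 3 and TETA 4 lay below every control library, and the other 2 lay among them. The log2 difference was -0.20 (SE 0.069, edgeR adjusted p = 0.0713), and the adjusted p fell under 0.05 with no filter on low counts (0.0432) and without control 1 (0.0479), control 4 (0.039) or TETA 1 (0.0135). It was 0.242 in DESeq2 and reached 0.254 without TETA 3, where the log2 difference was -0.14.

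Mobp was at 1056 ± 94.3 CPM (SD, n = 5) in controls and 960 ± 95.8 CPM (SD, n = 4) with TETA, a log2 difference of -0.14 (edgeR adjusted p = 0.147). Cnp was at 417 ± 35.1 and 380 ± 30.5 CPM, a log2 difference of -0.14 (edgeR adjusted p = 0.124). The adjusted p of Mobp passed without TETA 2, and that of Cnp without control 1 or TETA 1, with lowest values of 0.0357 and 0.0402. In DESeq2 they were 0.386 and 0.312, and the highest values on leaving out 1 library were 0.421 and 0.375, both without TETA 3. For Mbp, the most abundant of them, the levels were 2882 ± 124 and 2762 ± 216 CPM, a log2 difference of -0.06 (95% interval -0.15 to 0.02). Opalin and Ermn were the 2 above 0, at 0.02 and 0.10. The 4 enzymes of myelin lipid and acetate metabolism lay between -0.06 and 0.01, with adjusted p-values of at least 0.726.

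Of the newly formed genes, Enpp6 encodes a choline-specific phosphodiesterase of cells starting to myelinate. Its levels were 15.7 ± 2.17 CPM (SD, n = 5) and 13.6 ± 0.989 CPM (SD, n = 4), a log2 difference of -0.21 (edgeR adjusted p = 0.150). Its adjusted p was 0.0423 without control 4 and 0.372 without control 2, the lowest and highest on leaving out 1 library. Gpr17, Bcas1 and Tspan2 lay between -0.08 and 0.04. Of the regulators other than Sox8, Myrf was at 0.06, Sox10 at 0.01, Nkx2-2 at 0.02 and Nkx6-2 at 0.13, none past the threshold. Cryab was at 0.12 (edgeR adjusted p = 0.121), and Gjc3, Qdpr, Car2 and Nfasc lay between -0.06 and 0.08.

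**Figure D3:**
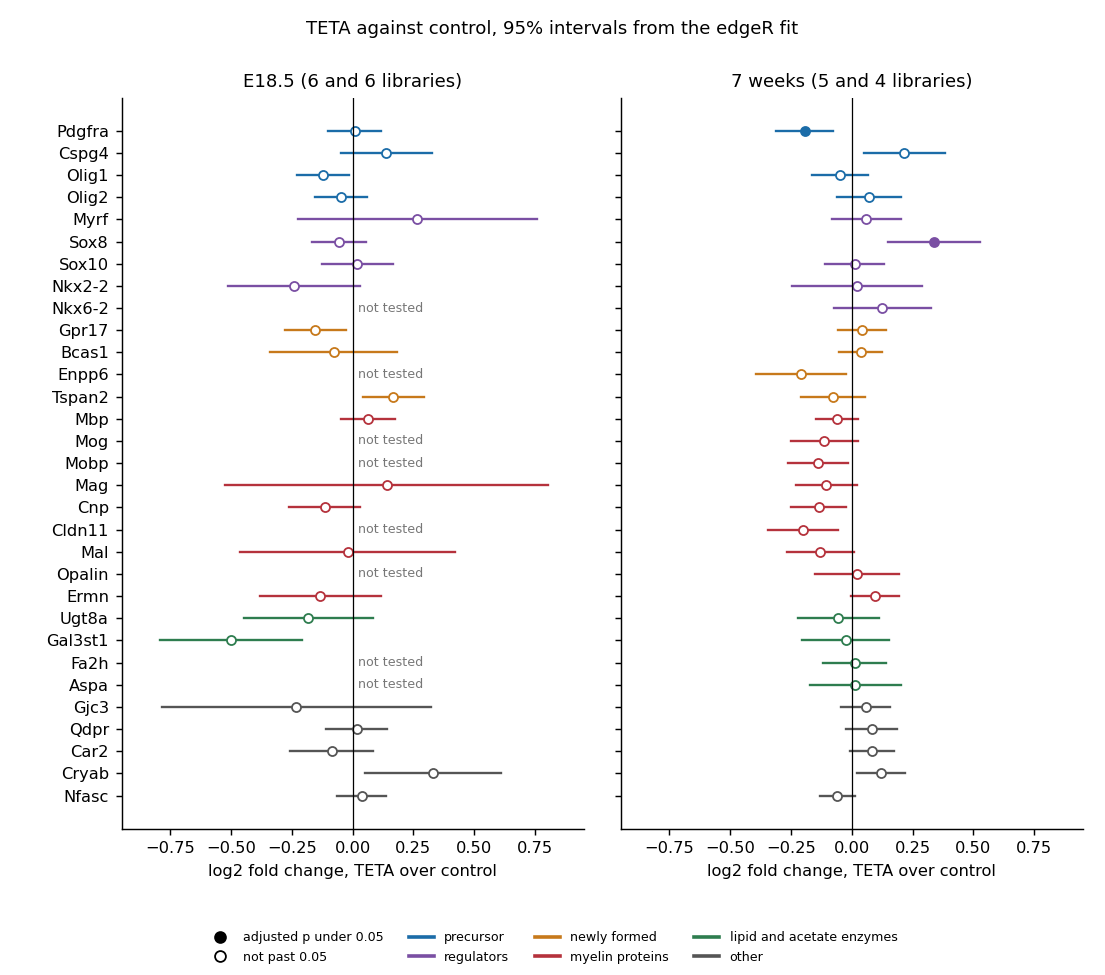
Log2 fold changes of TETA over control (points) with 95% intervals (lines) for the 31 genes at E18.5 (left) and 7 weeks (right), coloured by role, with filled points for an adjusted p under 0.05. The filled points are Pdgfra at -0.19 and Sox8 at 0.34, both at 7 weeks, and 8 genes are marked as not tested at E18.5.

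The libraries at 7 weeks differed from one another in the myelin genes within each group. For the 12 genes of myelin proteins and galactolipid synthesis, control 2 was the highest of the 9 libraries for 8 genes and TETA 3 the lowest for 7. Over all 31 genes, control 2 was the highest for 12 and TETA 3 the lowest for 13. Markers of striatal neurons also separated the groups. All 13 were lower with TETA, beside 4.28% of all genes, with summed levels of 1192 to 1460 CPM in controls and 554 to 696 CPM with TETA and no marker at 0. With the mean log2 level of those markers as a covariate, no gene of the lineage and no gene of the 14240 passed the threshold, the log2 difference of Pdgfra was 0.02 and that of Sox8 was 1.04 (edgeR adjusted p = 0.554). Since the marker levels of the groups do not overlap, the covariate and the treatment cannot be told apart.

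**Figure D4:**
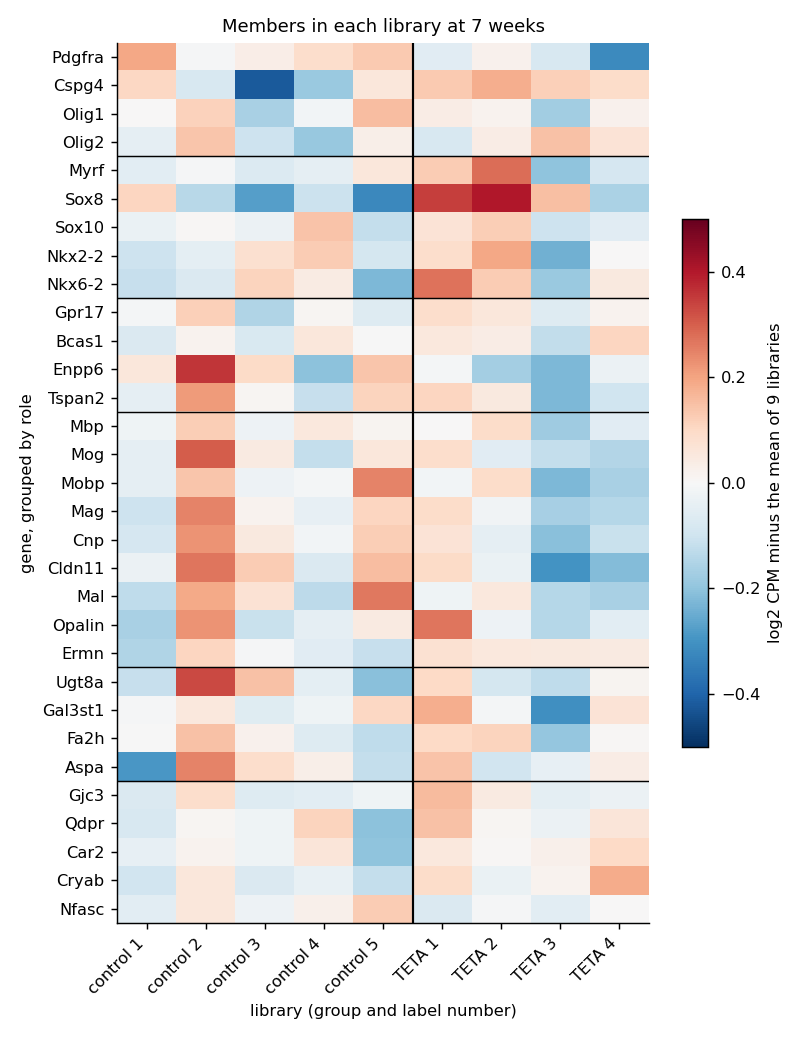
Colours give each library's log2 CPM minus the mean of the 9 libraries at 7 weeks, for the 31 genes (rows, by role) in 5 control and 4 TETA libraries (columns). Control 2 is the highest library for 12 genes and TETA 3 the lowest for 13.

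The precursor genes were then set against the myelin genes. For each library the mean log2(CPM + 1) of the 12 myelin genes was subtracted from that of Pdgfra, Cspg4, Olig1 and Olig2. At E18.5 only Mbp, Cnp, Ermn, Ugt8a and Gal3st1, 5 of the 12, had a mean of at least 1 CPM in controls. Mal, Cldn11 and Mag were at control means of 0.954, 0.709 and 0.619 CPM, and Mog, Mobp, Opalin and Fa2h were near 0. At E18.5 this difference was 3.71 ± 0.139 (SD, n = 6) in controls, from 3.54 to 3.84, and 3.76 ± 0.119 (SD, n = 6) with TETA, from 3.61 to 3.97. At 7 weeks it was -1.71 ± 0.131 (SD, n = 5) in controls, from -1.85 to -1.53, and -1.62 ± 0.09997 (SD, n = 4) with TETA, from -1.74 to -1.50. The groups overlapped at both ages, and TETA minus control was 0.045 at E18.5 and 0.083 at 7 weeks, each smaller than the SD of the libraries. With those 5 genes alone it was 0.11 and 0.05. Leaving out 1 library gave 0.0015 (without TETA 3-1) to 0.074 (without TETA 3-2) at E18.5 and 0.043 (without TETA 3) to 0.126 (without control 1) at 7 weeks. Both components differed by less than their SDs. At 7 weeks the mean of the precursor genes was 5.47 ± 0.104 in controls and 5.49 ± 0.040 with TETA, and that of the myelin genes was 7.18 ± 0.105 and 7.11 ± 0.109. That precursor mean joins Pdgfra, at a log2 difference of -0.19, with Cspg4 at 0.22, so opposite differences offset each other in it.

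**Figure D5:**
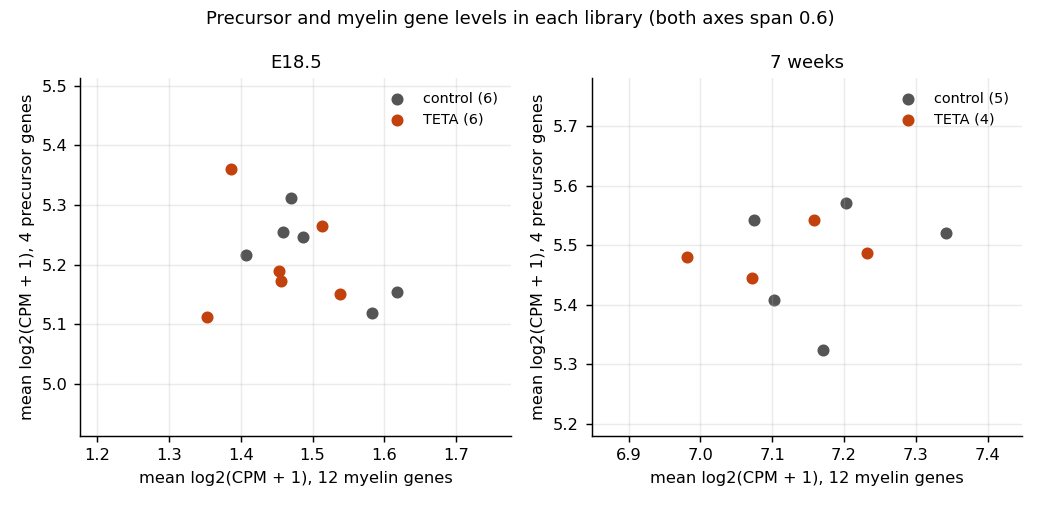
Each point is 1 library, with the mean log2(CPM + 1) of 12 myelin genes on the horizontal axis and of the 4 precursor genes on the vertical axis, at E18.5 (left) and 7 weeks (right), both axes spanning 0.6. Control and TETA libraries overlap in both panels, with precursor minus myelin differences of 3.54 to 3.97 at E18.5 and -1.85 to -1.50 at 7 weeks.

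Whether the TETA difference changed with age was tested as an interaction in the joint fit. None of the 23 genes that had passed the filter at E18.5 passed the threshold here, against 454 of 14660 genes (3.1%). The other 8 entered the joint fit through their 7-week counts, and their interaction is not read here, since the E18.5 difference has few reads behind it or none (SE 23.1 for Opalin and 1.24 for Mobp). The smallest adjusted p was that of Sox8, whose TETA difference was 0.38 log2 units larger at 7 weeks than at E18.5 (SE 0.11, edgeR adjusted p = 0.0545). This passed in DESeq2 (0.0422), without TMM (0.0291) and with no filter on low counts (0.0437). It also passed without control 1 (0.0145) or TETA 4 (0.00442) at 7 weeks, and without TETA 1-2 at E18.5 (0.0317). In the other 18 of 21 fits that left out 1 library it did not pass, with an adjusted p of up to 0.145. The interaction of Gal3st1 was 0.46 (SE 0.16, edgeR adjusted p = 0.123) and passed without TETA 3 at 7 weeks (0.0459) but in none of the other 20 such fits (up to 0.227). That of Pdgfra was -0.21 (SE 0.082, edgeR adjusted p = 0.173). The TETA difference of Pdgfra at 7 weeks is thus not shown to differ from its TETA difference at E18.5.

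Wider lists of genes around the lineage were examined by the same tests, and at E18.5 none of their genes passed the threshold. At 7 weeks, 3 of 24 genes of mature oligodendrocytes were higher with TETA and 2 lower, beside 5.67% of all genes higher and 4.28% lower. Il33, an alarmin cytokine that oligodendrocytes store, was at 21.98 ± 2.04 CPM (SD, n = 5) in controls and 29.8 ± 3.12 CPM (SD, n = 4) with TETA, a log2 difference of 0.44 (SE 0.074, edgeR adjusted p = 0.000655). Gsn, which severs actin filaments, was at 102 ± 10.03 and 82.7 ± 4.06 CPM, a log2 difference of -0.30 (SE 0.058, edgeR adjusted p = 0.00212). The other three, named after their values were seen, were Hapln2 at 0.35, Ndrg1 at 0.22 and Apod at -0.23. Gsn and Apod, the 2 that were lower, are also expressed by fibroblasts of the meninges and vessels, whose 7 markers were all below 0 with a median of -0.36, 2 of them called. The part of these cells in the Gsn and Apod results was not tested. The groups did not overlap for Il33, as for 11.2% of all genes, and overlapped for the other 4. The median of the 24 was 0.0013, beside 0.00019 for all genes. Apod missed the threshold in DESeq2 (0.0919) and without TETA 1 (0.0616) or TETA 4 (0.0848).

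Of 12 genes of late precursors and committed cells, 2 were lower at 7 weeks and none higher, beside 4.28% of all genes lower. Bmp4, a secreted factor of committed precursors, was at 4.57 ± 0.598 CPM (SD, n = 5) and 3.204 ± 0.296 CPM (SD, n = 4), with no overlap (11.2% of all genes) and a log2 difference of -0.52 (SE 0.13, edgeR adjusted p = 0.0146). Itpr2, an intracellular calcium channel of newly committed cells, was at -0.26 (SE 0.069, edgeR adjusted p = 0.0171). Itpr2 is also expressed by astrocytes, of whose 8 markers 7 were below 0 and 3 were called lower, beside 4.28% of all genes. The part of astrocytes in the Itpr2 value was not tested. Bmp4 missed the threshold without TETA 1 (0.0533), and Itpr2 without TETA 3 (0.0799) or TETA 4 (0.0502).

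Among 20 regulators of the lineage, 1 was higher and 2 lower, beside 9.96% of all genes called. Hes1 and Hes5, repressors induced by Notch, moved in opposite directions. Hes1 was at 6.75 ± 0.733 CPM (SD, n = 5) in controls and 9.83 ± 0.517 CPM (SD, n = 4) with TETA, a log2 difference of 0.54 (SE 0.091, edgeR adjusted p = 0.000672). Hes5 was at 10.8 ± 1.00 and 7.96 ± 0.348 CPM, a log2 difference of -0.44 (SE 0.084, edgeR adjusted p = 0.00192). Both had groups without overlap, as did 11.2% of all genes. The other, named after its value was seen, was Zeb2, a factor that relieves inhibitory signals during myelination, at -0.13, which missed the threshold without TETA 3 (0.0598). Hes1 and Hes5 are not particular to oligodendrocytes and are also expressed by astrocytes, endothelial cells or progenitors. Of 6 endothelial markers, 1 (Flt1) was higher with TETA and none lower, beside 5.67% of all genes higher. Their summed levels were 182 to 197 CPM in controls and 184 to 210 CPM with TETA, with no marker at 0. Of the 8 astrocyte markers 3 were lower, as given above. The part of these cells in the Hes1 and Hes5 values was not tested.

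Of 15 genes that signal to the lineage 2 passed, and of 14 genes of myelin lipid metabolism 2 passed, which is 13.3% and 14.3% beside 9.96% of all genes. Among the signals, Igf1r, the receptor for insulin-like growth factor, was at 0.22 (SE 0.048, edgeR adjusted p = 0.00503) and Gpr37l1, a glial receptor, was at -0.22 (SE 0.045, edgeR adjusted p = 0.00312). Gpr37l1 is also expressed by astrocytes, of whose 8 markers 7 were below 0 and 3 were called lower, and their part in its value was not tested. Among the lipid genes, Galc, which degrades galactosylceramide, was at 0.16 (edgeR adjusted p = 0.0385) and Sqle, an enzyme of cholesterol synthesis, at -0.14 (edgeR adjusted p = 0.0409). Leaving out any 1 of the libraries other than TETA 4 took the adjusted p of Galc past 0.05 (up to 0.128), and leaving out control 1, 2, 3 or 4 or TETA 2 or 3 did so for Sqle (up to 0.164). Galc also missed the threshold in DESeq2 (0.0627) and with no filter on low counts (0.0506), and Sqle missed it without TMM (0.0687). None of 12 axonal partners of the node and paranode passed.

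Between the ages, 23 of the 24 mature oligodendrocyte genes were higher at 7 weeks and 1 was lower, beside 44% of all genes higher. Their median was 3.96. Of these 24, 19 passed the filter on low counts at E18.5 alone, and the others were tested together with their 7-week counts. Of the 20 regulators of the lineage, 17 were lower and 3 higher, with a median of -0.86, beside 45.3% of all genes lower. Of the 12 genes of late precursors and committed cells, 8 were higher and 4 lower, beside the same 44% and 45.3%. At E18.5 alone, 10 of these 12 passed the filter.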

How the data were processed

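RNA was measured by sequencing 21 poly(A)-selected, stranded libraries. The authors deposited 1 table of raw counts per gene for each age, made with STAR 2.7.1a and featureCounts 2.0.1 on mm10, per the submitters' processing notes. The annotation and the strand setting of the counting are not given in the sources used here, so reads of overlapping or antisense genes may be shared. In the E18.5 table, every count of the 1940 genes at 0 in control library 1-1 was a multiple of 11, and these counts were divided by 11. This touched Mobp and Aspa.

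Groups came from the sample titles. Genes were filtered with filterByExpr (minimum count 10) and tested with edgeR 4.0.16 (quasi-likelihood, TMM) in R 4.3.3, each age alone for TETA against control and all 21 libraries jointly for age and for the interaction. Standard errors are the log2 fold change divided by the square root of F. The script was tested on simulated data. Libraries of a group differed by more than sampling noise (lowest chi-square per gene 2.40). A pairing of libraries by the numbers in the sample names was not shown, and the main fits used none. The 31 genes and the wider and marker lists were chosen with earlier results of these data known. All 31 genes could be named, and values were given per library (at E18.5, with 6 libraries a group, as the lowest, median and highest) for the precursor genes, genes past the threshold and the 3 smallest p-values in each TETA comparison. From each wider list the 2 smallest p-values past the threshold were named. Alternatives were DESeq2 1.42.0, library totals without TMM, no filter or a mean of at least 50 counts, counts as deposited, a replicate block, sums over libraries sharing the first number, a striatal covariate and leaving out each library. Upstream sequences and gene positions came from RefSeq (GRCm38.p6) and GENCODE M21.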

Additional observations from a re-analysis of the deposited data

Results flagged for a closer look

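In 112 groups of 4 to 6 libraries, 2 held a library that stood apart from the others of its group, where chance alone gives about 1 in 20, or 5.6. Gjc3 at E18.5 was at 0.229 CPM in TETA library 1-1, with the other five between 0.436 and 0.511 CPM. Olig1 at 7 weeks was at 92.0 CPM in TETA library 3, with the other three between 105.0 and 106.4 CPM. TETA 3 is also the lowest of the 9 libraries for 13 of the 31 genes.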

How the results depend on the processing

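At E18.5 no gene of the lineage passed the threshold under any alternative. Over all genes the count there, 0, became 10 with DESeq2, 2 with libraries summed by their first number, and 0 to 7 when 1 library was left out. The 2 genes called at 7 weeks became 3 with no filter on low counts (Cldn11 added), 1 with DESeq2, 1 without TMM, 1 with the replicate block and 0 with the striatal covariate, which also took the calls over all genes from 1418 to 0. Leaving out 1 library gave 1 to 4 genes of the lineage and 927 (without TETA 3) to 1392 genes in all. For the interaction, the count of 0 became 1 with DESeq2, without TMM, with no filter or with the replicate block, and was 0 to 1 without single libraries, while the count over all genes, 454, ranged from 290 to 622. Without TMM its split was 413 higher and 161 lower, in place of 245 and 209. The age comparison kept 30 genes called under each alternative run. The cause of these shifts was not tested.

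Signs that turned belonged to small differences or to the striatal covariate. With that covariate the log2 differences at 7 weeks were 0.0215 for Pdgfra, 0.00595 for Olig1, -0.45 for Olig2, 0.16 for Cldn11, 0.00925 for Mobp, 0.00096 for Cnp, 0.22 for Mbp, 0.0343 for Zeb2 and 0.10 for Sqle. Without TMM they were -0.00054 for Pdgfra at E18.5 and -0.10 for Olig2 between ages. Leaving out single libraries gave -0.0276 to 0.037 for Pdgfra at E18.5, -0.0911 to 0.00017 for Olig1 at 7 weeks, -0.0011 to 0.082 for Olig2 between ages, and -0.00099 to 0.13 for Cspg4 in the interaction.

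A pairing by the numbers in the sample names was not shown. Deviations of same-numbered libraries correlated between -0.275 and 0.284 at E18.5 (3 of 6 above 0.1). At 7 weeks they correlated between -0.0692 and -0.0296. The mixed E18.5 values do not settle whether libraries there were paired. With the replicate block, the adjusted p at 7 weeks was 0.0738 for Pdgfra and 0.0235 for Sox8, it was 0.0511 for Ndrg1, 0.117 for Galc and 0.0724 for Sqle, and that of the Sox8 interaction was 0.0435. Low counts limit the E18.5 comparison, where 8 of the 31 genes did not pass the filter; with no filter 30 were tested and none was called.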
